A study of Mus musculus with 12 samples.

Results

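Gene expression in untreated primary hepatocytes, the parenchymal cells of the liver, was compared between AEG-1-L24K/L25H knock-in mice and AEG-1-WT mice. The comparison used the untreated libraries alone, 3 of each genotype, so 6 of the 12 libraries of the series. The other 6 came from hepatocytes of the same genotypes given the PPAR-alpha agonist CP775146 for 24 h, and none of them entered a fit. The knock-in was made with CRISPR/Cas9 on a C57BL/6/J background and changes both leucine 24 and leucine 25 of AEG-1, to lysine and to histidine (L24K and L25H). Wild-type and knock-in mice are described as littermates from crosses of heterozygotes. Their age, their sex and the number of edited founder lines are not given in the sources used here. Nothing says whether the 3 libraries of a genotype came from separate mice, cell isolations or dishes. The p-values therefore measure the spread between these libraries, which may be technical. Total RNA was sequenced after TruSeq library preparation, and the 6 libraries held 26956032 to 33071703 counts on genes.

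AEG-1, the product of the gene Mtdh, is a protein of the endoplasmic reticulum membrane, nucleus and cytoplasm that is abundant in liver tumours and binds the nuclease SND1. A short leucine motif near its amino end, LXXLL, is of the kind by which proteins attach to nuclear receptors, and through it AEG-1 is known to bind the retinoid X receptor RXR and to hold back RXR-dependent transcription. RXR pairs with PPAR-alpha, the fatty acid receptor of hepatocytes, with the bile acid receptor FXR and with the oxysterol receptor LXR. The edited codons lie in the first exon of Mtdh, on the forward strand of chromosome 15. The wild-type reference sequence from codon 15 to codon 34 (GRCm38, chr15:34083078-34083137, from the GENCODE transcript) is shown because it holds the only designed difference between the groups, with the leucine codons 21, 24 and 25 of the motif in capitals.
Mtdh: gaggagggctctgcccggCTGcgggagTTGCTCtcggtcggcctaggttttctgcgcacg

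Levels are given as CPM, a gene's counts per 1000000 counts of its library, with library sizes scaled by TMM, and differences as log2, knock-in minus wild type, ± SE. A gene is called higher or lower where the adjusted p of the edgeR quasi-likelihood test (Benjamini-Hochberg over all genes tested) was below 0.05. The SE is approximate, being the size of the log2 difference divided by the square root of the F statistic of that test. Errors of CPM are SD over 3 libraries. Mtdh itself stood at 179, 162 and 171 CPM in the wild-type libraries and at 180.2, 176 and 177 CPM in the knock-in libraries. The groups overlapped, and the difference of 0.06 ± 0.04 was not called (edgeR adjusted p = 0.267). Counts summed over a gene do not carry the codon change, so they cannot check the genotype of any library. Of the 9 tested genes that start within 1 Mb of Mtdh, the gene itself included, Laptm4b, Pop1 and Matn2 were higher (0.33, 0.51 and 1.56) and Cpq was lower (−0.42), while 5 were not called. That is 4 of 9 called, beside 38.4% of all genes tested.

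Of 14946 genes tested, 5737 were called, which is 38.4%, with 2860 higher (19.1%) and 2877 lower (19.2%) in the knock-in. Most differences were small: the median size among called genes was 0.33 log2, 439 higher and 245 lower genes differed at least 2-fold, and 78 and 26 at least 4-fold. In 97.1% of the called genes the 3 libraries of each genotype did not overlap, against 48.8% of all genes tested. Libraries of a genotype correlated at 0.9928 to 0.9944 in wild type and 0.9962 to 0.9964 in the knock-in, and libraries of different genotypes at 0.9824 to 0.9862 (Pearson's r of log2 CPM across genes). Without TMM, on total counts alone, the split was 5022 higher and 1709 lower, and the median of all genes shifted by 0.098 log2. The 20 genes with the most counts took 20.2% to 20.4% of a wild-type library and 16.5% to 17% of a knock-in library. The wild-type libraries spread more among themselves, with a biological coefficient of variation of 5.09% against 2.58% in the knock-in.

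**Figure D1:**
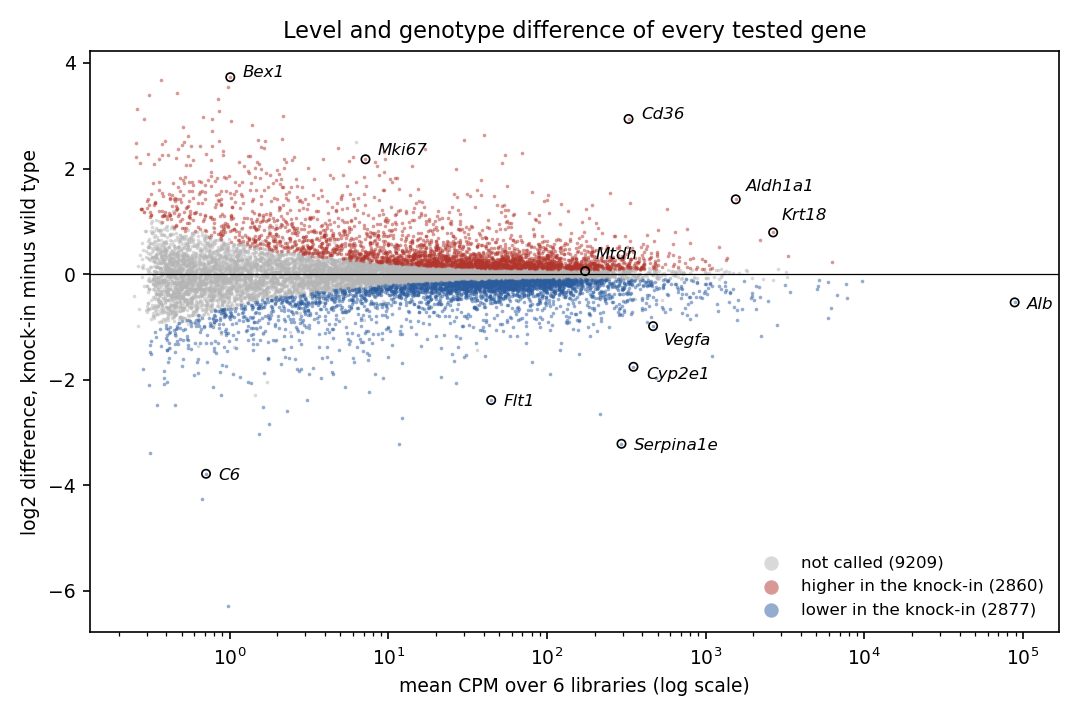
Each point is a tested gene, with its mean level over the 6 libraries on a log axis (CPM) and its log2 difference, knock-in minus wild type; red genes were called higher (2860), blue ones lower (2877) and grey ones were not called. The circled examples show that Alb, at the right edge, lay below 0, that Mtdh lay close to 0, and that Cd36 combined a high level with a large rise.

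The samples carried the markers of their labelled cell type. Hepatocyte marker genes summed to 133267 to 136167 CPM in wild type and 98294 to 103368 CPM in the knock-in, most of it Alb, and 12 of 21 were lower and 2 higher (9 and 6 under total-count scaling). Hnf4a, a transcription factor that defines hepatocytes, was at 656, 652 and 641 CPM and 651, 635 and 643 CPM and was not called. In bulk RNA, fewer cells of a type and less RNA per cell cannot be told apart. Macrophage and Kupffer cell markers summed to 228 to 269 CPM in wild type and 168 to 178 CPM in the knock-in. Of 15 tested, 3 were higher (20.0%) and 1 lower (6.7%), with a median of 0.32 log2, beside 19.1% and 19.2% of all genes tested. The lower one was Cd68, a lysosomal membrane protein gene, which held most of the sum and fell from 241 ± 22.8 to 155 ± 4.6 CPM. The fall of the sum was that of Cd68, and the 3 markers called higher went against it. The defining Kupffer cell genes Clec4f and Vsig4 stood at 0.607 and 0.77 CPM and at 0.341 and 0.427 CPM in wild type and knock-in, neither called. Endothelial markers summed to 183 to 204 CPM in wild type and 103 to 111 CPM in the knock-in. Of 19 tested, 3 were higher (15.8%) and 5 lower (26.3%), or 3 and 3 under total-count scaling. Most of the wild-type sum lay in Flt1 and Stab2, which fell from 74.8 ± 6.17 to 14.3 ± 1.25 CPM and from 67 ± 4.95 to 34.6 ± 2.62 CPM, while Pecam1 (4.39 and 4.11 CPM), Kdr (1.39 and 1.36 CPM) and Lyve1 (3.55 and 3.8 CPM) were not called. Stellate cell and fibroblast genes were split, with 2 higher (16.7%) and 4 lower (33.3%) of 12 and sums of 551 to 575 CPM and 502 to 514 CPM. None of the 22 markers of neutrophils and lymphocytes passed the filter on low counts. The part of non-hepatocyte cells in the results that follow was not tested. Cholangiocyte and progenitor markers are taken up with the keratins.

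**Figure D2:**
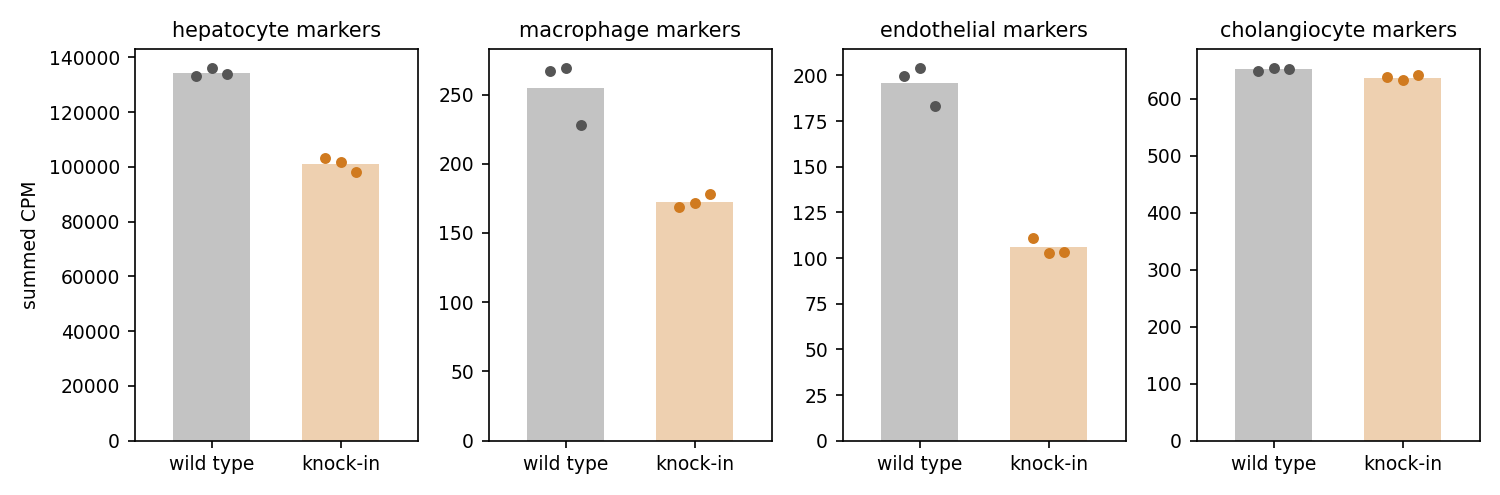
Summed CPM of the markers of 4 liver cell types, with 1 point per library and the bar at the mean of the 3 libraries of a genotype. Each panel has its own axis from 0. The endothelial sum was lower in the 3 knock-in libraries, where Flt1 and Stab2 fell.

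Before a cell copies its DNA, the origin recognition complex and its loading factors place the MCM helicase on chromatin, CDC45 and the GINS complex switch it on, and polymerases follow at the fork. Most adult hepatocytes rest outside the cell cycle, and the genes of this machinery are kept at low levels by E2F and RB family proteins until growth signals raise cyclins. In the knock-in, 16 of 19 licensing and helicase genes were higher and none lower (median 0.91 log2, against 0.00 over all genes tested). The helicase subunit gene Mcm5 stood at 6.97, 7.19 and 7.22 CPM in wild type and at 19.8, 20.3 and 20.8 CPM in the knock-in. All 3 knock-in libraries lay above all 3 of wild type, a difference of 1.51 ± 0.07 (edgeR adjusted p = 3.33e-13). Mcm6, of another subunit, rose from 34.7 ± 1.36 to 60.9 ± 1.58 CPM. The loader gene Cdc6 rose from 0.554 ± 0.102 to 2.43 ± 0.09 CPM, Orc1 of the origin recognition complex from 0.553 ± 0.0549 to 1.66 ± 0.28 CPM, and Cdc45 from 1.01 ± 0.0554 to 2.63 ± 0.241 CPM. The rise of Mcm7 was 0.28 ± 0.05, and the licensing inhibitor gene Gmnn, at 9.26 ± 0.76 and 10.3 ± 0.385 CPM, was not called. Orc1, Cdc45, Mcm7 and Gmnn were named after their values were seen.

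At the fork, 14 of 24 genes were higher and none lower (median 0.38). The leading-strand polymerase gene Pole rose from 4.37 ± 1.29 to 11.9 ± 0.906 CPM, and Clspn, whose product claspin links the fork to the checkpoint kinase CHK1, rose from 0.53 ± 0.16 to 2.76 ± 0.457 CPM. Rises were smaller in the sliding clamp gene Pcna (0.34 ± 0.06) and in the DNA ligase gene Lig1 (0.63 ± 0.06), and several polymerase delta and clamp loader genes were not called. Of 12 genes for deoxynucleotide supply, 8 were higher, among them the thymidine kinase gene Tk1 (2.97 to 4.94 CPM). The exception was Rrm2, the S-phase subunit of ribonucleotide reductase, at 60.8, 65.4 and 56.6 CPM in wild type and 36.4, 32.3 and 37.7 CPM in the knock-in. It ran against its partner subunit Rrm1, which rose from 23.9 ± 0.913 to 31.3 ± 1.34 CPM. Pcna was named after its values were seen.

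The regulators upstream of replication moved unevenly. Among 28 G1 cyclin, CDK inhibitor and E2F genes, 12 were higher and 3 lower (17 and 1 under total-count scaling). Ccnd1, the D-type cyclin gene that growth factors induce, rose 2.85-fold, from 13.5 ± 1.33 to 38.6 ± 1.26 CPM. The E-type cyclin gene Ccne1 stood at 2.56, 2.63 and 2.65 CPM in wild type and 7.76, 8.29 and 8.92 CPM in the knock-in, and Ccna2, the cyclin of S and G2 phase, rose from 1.38 ± 0.173 to 4.34 ± 0.412 CPM. E2f7, a repressor gene that E2F itself induces, went from 0.176 ± 0.0184 to 1.53 ± 0.149 CPM, close to the level of 3 counts in wild type (0.107 to 0.111 CPM). Cdkn1a, the gene of the CDK inhibitor p21, fell from 485 ± 16 to 368 ± 2.58 CPM. Myc and Cdk4 were not called (0.07 ± 0.04 and −0.0 ± 0.04). Myc and Cdk4 were named after their values were seen.

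The list of mitosis and spindle genes had a median of 1.58: 41 of 48 were higher and none lower. The levels stayed low in both genotypes. Mki67, present in cycling cells of any kind, was at 2.53, 2.63 and 2.65 CPM in wild type and at 11.9, 11.3 and 12.1 CPM in the knock-in, with no overlap. The DNA topoisomerase gene Top2a rose from 2.09 ± 0.184 to 9.24 ± 0.611 CPM, the mitotic kinase gene Cdk1 from 2.26 ± 0.156 to 5.94 ± 0.291 CPM, the checkpoint kinase gene Ttk from 0.239 ± 0.087 to 1.81 ± 0.405 CPM and the cytokinesis gene Anln from 3.44 ± 0.697 to 15.7 ± 0.359 CPM. Not every mitotic gene followed. Ccnb2, Pttg1 and Cenpa, genes of a mitotic cyclin, of securin and of the centromeric histone, were not called, at 0.30, −0.04 and 0.02. Ccnb1 did not pass the filter on low counts. Ccnb2, Pttg1, Cenpa and Ccnb1 were named after their values were seen.

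Genes that handle DNA and chromatin behind the fork followed in part. Of 26 repair and Fanconi anaemia genes 13 were higher and 2 lower, with the checkpoint kinase gene Chek1 at 1.77 ± 0.159 and 4.45 ± 0.427 CPM in wild type and knock-in. Atr, the kinase gene that acts above CHK1, fell from 80.0 ± 3.48 to 59.6 ± 1.11 CPM. Uhrf1, which brings DNA methyltransferase to newly copied DNA, rose from 3.04 ± 0.179 to 11 ± 0.527 CPM. Targets of the tumour suppressor p53 went the other way in more cases, with 11 of 25 lower and 4 higher, though the counts became 10 and 7 and the median of −0.07 became 0.03 under total-count scaling. Sesn1 fell from 51.2 ± 3.37 to 24.7 ± 1.68 CPM and Ddit4, an inhibitor of mTOR signalling that p53 and low oxygen both induce, from 117 ± 6.51 to 61.8 ± 1.03 CPM.

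Promoter sequence was examined because the replication and mitosis genes moved together. Both E2F sites and a second element are known to act in such promoters. E2F sites were searched as TTTCCCGC, TTTGGCGC, TTTGGCGG and TTCCCGCC and the second element, the cell cycle homology region, as TTTGAA, each on both strands of the 250 bases before a RefSeq start. An E2F word was found for 42.9% of 14 licensing and helicase genes with a window and for 6.4% of the 10142 tested genes with one. TTTGAA was found for 39% of 41 mitosis genes and 12.9% of all. It was also found for 45.5% of 11 sulfotransferase genes, 36.6% of 41 CYP1, CYP2 and CYP3 genes and 10% of 20 replication fork genes, so it is not particular to the mitosis list. Words this short recur by base composition alone, the E2F words overlap each other, and a match is not a bound site. Some matching promoters, chosen after the search, are shown as the last 100 bases before the start (RefSeq, GRCm38.p6), with TTTGAA or its complement in capitals in Top2a (chr11:99024190-99024289, reverse strand), Cdk1 (chr10:69352913-69353012, reverse strand) and Mki67 (chr7:135716380-135716479, reverse strand), and the E2F word in capitals in Mcm6 (chr1:128359706-128359805, reverse strand).
Top2a: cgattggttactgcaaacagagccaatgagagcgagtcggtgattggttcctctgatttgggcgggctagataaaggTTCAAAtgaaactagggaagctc
Cdk1: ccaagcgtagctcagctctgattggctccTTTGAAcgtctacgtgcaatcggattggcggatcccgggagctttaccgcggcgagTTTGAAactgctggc
Mki67: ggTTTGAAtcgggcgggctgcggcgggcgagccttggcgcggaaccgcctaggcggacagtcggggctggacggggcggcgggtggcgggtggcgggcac
Mcm6: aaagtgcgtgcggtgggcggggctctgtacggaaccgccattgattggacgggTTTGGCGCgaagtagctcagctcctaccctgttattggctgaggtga
All 4 genes were higher in the knock-in, Top2a by 2.14, Cdk1 by 1.39, Mki67 by 2.18 and Mcm6 by 0.81.

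Genes of the response to low oxygen were lower as a group. When oxygen is short, prolyl hydroxylases no longer mark HIF transcription factors for destruction, and HIF then raises genes for glycolysis, for blood vessel growth and for its own hydroxylases. Of 26 tested genes of this list, 17 were lower and 3 higher (median −0.60). Vegfa, the vascular growth factor gene, stood at 596, 687 and 578 CPM in wild type and at 335, 319 and 287 CPM in the knock-in. No knock-in library reached the lowest of wild type, and the difference was −0.98 ± 0.08 (edgeR adjusted p = 4.99e-05). The hydroxylase genes that act on HIF fell too, Egln3 from 206 ± 17 to 112 ± 4.16 CPM and Egln1 from 189 ± 2.47 to 112 ± 2.57 CPM. So did the collagen prolyl hydroxylase genes P4ha2 (327 ± 16.4 to 164 ± 4.1 CPM) and P4ha1 (44.6 to 29.6 CPM), the mitophagy gene Bnip3 (283 ± 6.41 to 172 ± 10.3 CPM), and Pdk1, whose product keeps pyruvate out of mitochondria (232 ± 7.64 to 139 ± 6.72 CPM). Ero1l, an oxidase gene for disulphide formation that HIF induces, fell from 172 ± 8.23 to 94.3 ± 1.42 CPM, and Ndrg1 from 282 ± 22.8 to 159 ± 5.3 CPM. The members that rose were Hif1a itself (64.5 ± 5.33 to 93.7 ± 3.94 CPM), Angptl4 (104 ± 10.2 to 157 ± 2.2 CPM) and Hilpda (15.6 ± 0.714 to 21.2 ± 1.23 CPM). The latter pair are also PPAR-alpha targets. Epas1, which encodes HIF-2 alpha, was not called (−0.06 ± 0.05). Vegfa, Egln3, P4ha1, Ndrg1, Hif1a, Hilpda and Epas1 were named after their values were seen.

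HIF binds the letters ACGTG or GCGTG. These words were present, on either strand, in the 250 bases before the start of all 20 members of the list that have a window, against 60.9% of all tested genes with one, so most promoters hold such a word. The list was made of HIF targets and members were searched whatever their call, so this share says nothing about the falls. The last 100 bases before the start are shown for 3 lower genes with the words in capitals, chosen after the search: P4ha2 (chr11:54100824-54100923, forward strand), Bnip3 (chr7:138909507-138909606, reverse strand) and Slc2a1 (chr4:119108645-119108744, forward strand), which encodes the glucose transporter GLUT1.
P4ha2: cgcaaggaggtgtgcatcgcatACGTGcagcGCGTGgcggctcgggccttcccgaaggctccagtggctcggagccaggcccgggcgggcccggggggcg
Bnip3: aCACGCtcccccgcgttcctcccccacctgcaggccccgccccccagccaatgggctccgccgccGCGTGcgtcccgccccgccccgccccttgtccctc
Slc2a1: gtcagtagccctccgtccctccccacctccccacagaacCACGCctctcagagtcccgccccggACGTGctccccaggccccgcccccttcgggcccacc
Differences were −1.0 for P4ha2, −0.72 for Bnip3 and −0.56 ± 0.05 for Slc2a1.

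Glycolysis, gluconeogenesis and glycogen genes share members with the preceding list and fell in 28 of 49 cases, with 6 higher (median −0.26; 23 lower and 12 higher under total-count scaling). Along glycolysis, the isomerase gene Gpi1 fell from 734 ± 46.8 to 466 ± 4.99 CPM, Pfkfb3, which makes an activator of phosphofructokinase, from 84.5 ± 4.73 to 46.4 ± 1.94 CPM, and the lactate dehydrogenase gene Ldha from 1488 ± 78.7 to 1179.7 ± 33 CPM. In the opposite pathway, G6pc, the last step of glucose release, fell from 7.53 ± 1.05 to 3.5 ± 0.107 CPM, and its transporter Slc37a4 from 178 ± 5.07 to 106 ± 4.67 CPM. Genes of glycogen-targeting subunits of protein phosphatase 1 were lower, Ppp1r3c (27.8 ± 2.06 to 12.3 ± 0.445 CPM) and Ppp1r3b (181 ± 4.71 to 96.1 ± 2.83 CPM). Rises were found in Hk2 (10.1 ± 1.4 to 15.9 ± 0.822 CPM), a hexokinase gene of dividing and extrahepatic cells, and in Pfkfb1 (13 ± 0.874 to 20.3 ± 1.33 CPM). The glucose transporter gene Slc2a2 was not called (0.08 ± 0.03). Ldha, Hk2, Pfkfb1 and Slc2a2 were named after their values were seen.

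**Figure D3:**
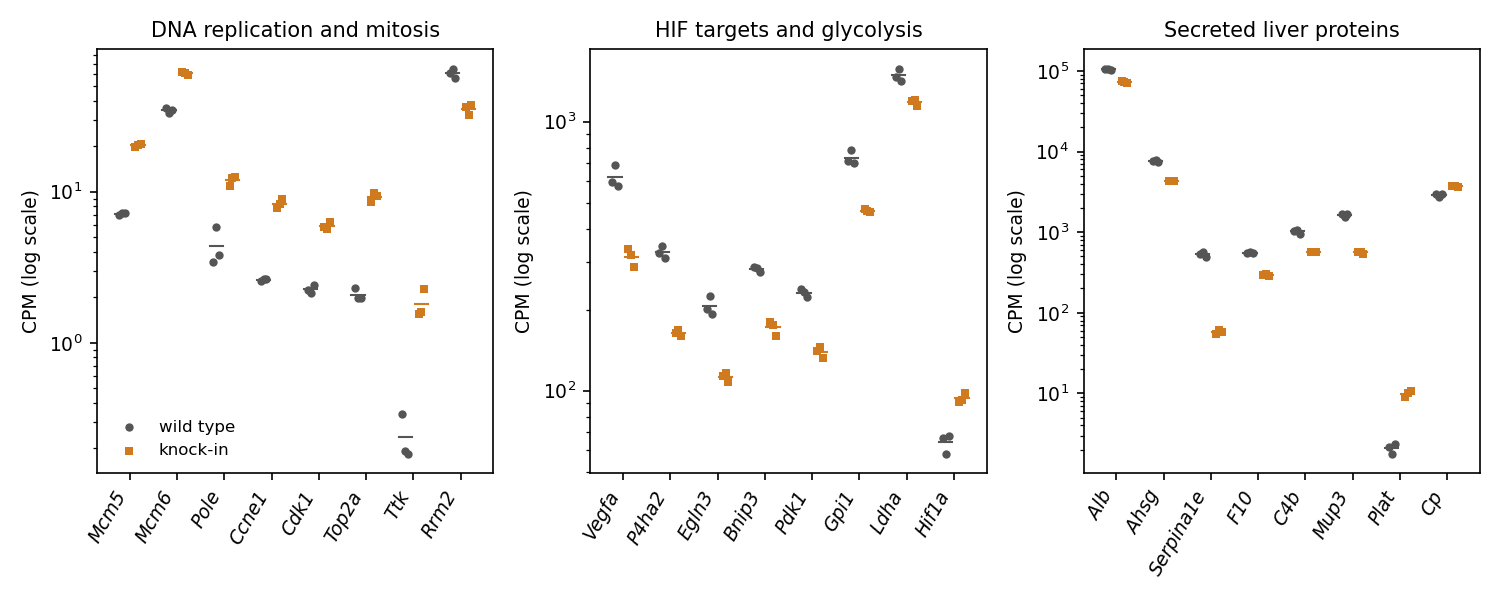
CPM on a log axis for 24 genes in each of the 3 wild-type (grey circles) and 3 knock-in libraries (orange squares), with the group mean as a short line. Replication and mitosis genes other than Rrm2 lay higher in the knock-in, HIF and glycolysis genes other than Hif1a lower, and among secreted proteins Plat and Cp were higher while Alb, Ahsg, Serpina1e, F10, C4b and Mup3 were lower.

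The liver makes most proteins of blood plasma, and these transcripts dominated the libraries. Alb stood at 104384, 106976 and 103801 CPM in wild type and at 74689.8, 72927 and 70044 CPM in the knock-in (−0.53 ± 0.04, edgeR adjusted p = 7.1e-11), and it took 10.06% to 10.26% and 7.25% to 7.73% of all counts. Plasma carriers and other secreted proteins were lower in 24 of 33 cases and higher in 5 (median −0.43). The fetuin gene Ahsg fell from 7628 ± 199.8 to 4282 ± 17.2 CPM and its relative Fetub from 243 ± 18 to 122 ± 4.7 CPM, the haem carrier gene Hpx from 9064 ± 55.8 to 6609 ± 115 CPM and the retinol carrier gene Rbp4 from 2528 ± 51.5 to 1881 ± 36.4 CPM. The copper oxidase gene Cp rose, from 2893 ± 159 to 3698 ± 36.6 CPM, as did the fetal albumin relative Afp, from 7.61 ± 0.937 to 14.7 ± 0.964 CPM. Prealbumin, Ttr, was not called at 2744 ± 206 and 2549.6 ± 33.9 CPM. Summed over called genes, CPM fell by 116075 in the lower and gained 45471 in the higher genes, on TMM-scaled libraries. The TMM factors were 0.9603 to 0.9703 in wild type and 1.0352 to 1.0372 in the knock-in. Scaled CPM therefore add up to more in a wild-type library, and the imbalance between these sums follows from the scaling. Rbp4 was named after its values were seen.

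In the serpin A cluster of protease inhibitor genes, 16 of 22 were lower and 2 higher (median −0.67). Serpina1e, an alpha-1-antitrypsin gene, stood at 537, 573 and 489 CPM in wild type and at 54.8, 60.8 and 57 CPM in the knock-in, 9.27-fold lower. Its copies fell too, Serpina1c from 574 ± 73.6 to 329 ± 15.5 CPM, Serpina1a from 245 ± 20.4 to 154 ± 3.09 CPM and Serpina1b from 1419 ± 48 to 1223 ± 31.8 CPM. These copies are nearly identical in sequence, so the split of reads between them is uncertain. The thyroxine carrier gene Serpina7 went up, from 126 ± 20.2 to 207 ± 3.11 CPM. Serpina1c and Serpina7 were named after their values were seen.

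Acute-phase genes, which the liver raises in inflammation, were lower in 20 of 30 cases and higher in 5 (18 and 8 under total-count scaling). Lrg1 fell from 509 ± 50.2 to 321 ± 11.1 CPM and the lipopolysaccharide carrier gene Lbp from 279 ± 10.3 to 215 ± 4.68 CPM, whereas Hp, haptoglobin, was not called (−0.05 ± 0.03). The rises were in Cp, Cd14, Steap4, Apcs and Socs3, of which Socs3, a feedback inhibitor of cytokine receptors, went from 1.42 ± 0.108 to 2.93 ± 0.304 CPM. The interleukin 6 receptor gene Il6ra fell from 81.7 ± 2.18 to 62.8 ± 2.82 CPM and the signalling subunit Il6st from 324 ± 11.8 to 267 ± 7.77 CPM, while Osmr, the oncostatin M receptor gene, rose from 5.81 ± 0.639 to 12.8 ± 1.71 CPM. Lrg1, Lbp, Cd14, Steap4, Apcs, Socs3, Il6ra, Il6st and Osmr were named after their values were seen.

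Complement genes were lower in 19 of 35 cases and higher in 5 (16 and 8 under total-count scaling). Falls ran along the cascade: the classical pathway component C4b from 1019.5 ± 53.2 to 567 ± 3.55 CPM, the soluble regulator Serping1 from 529 ± 13.7 to 350.4 ± 4.92 CPM, and the membrane attack genes C8a and C8b from 38.9 ± 1.42 to 19.6 ± 0.105 CPM and 86.8 ± 0.443 to 48.4 ± 1.64 CPM. C6, another membrane attack gene, was at 1.32, 1.04 and 1.62 CPM in wild type and at 0.0974, 0.0942 and 0.0877 CPM in the knock-in, where the level of 3 counts is 0.091 to 0.101 CPM. The lectin pathway gene Mbl2 rose, from 350.0 ± 31.9 to 467 ± 8.4 CPM. C6 and Mbl2 were named after their values were seen.

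Of 34 coagulation and fibrinolysis genes 11 were higher (32.4%) and 16 lower (47.1%), beside 19.1% and 19.2% of all genes tested. Several circulating clotting factors fell, with F10 at 547, 572 and 549.5 CPM in wild type and 298, 299 and 289 CPM in the knock-in, prothrombin, F2, from 1837 ± 68.2 to 1192 ± 8.44 CPM and F12 from 689 ± 26.8 to 419.6 ± 10.6 CPM. Plasminogen, Plg, fell from 649 ± 26.9 to 419.7 ± 6.93 CPM. Rises included those of tissue plasminogen activator, Plat, from 2.11 ± 0.298 to 9.9 ± 0.723 CPM, the urokinase receptor gene Plaur from 20.3 ± 0.867 to 57 ± 2.12 CPM, thrombomodulin, Thbd, from 1.82 ± 0.298 to 6.71 ± 0.638 CPM, and tissue factor, F3, from 46.7 ± 3.69 to 61.5 ± 1.49 CPM. The protein C cofactor gene Pros1, a circulating member, rose from 27.6 ± 1.37 to 47.1 ± 1.31 CPM, and fibrinogen beta, Fgb, was not called. Thbd, F3 and Pros1 were named after their values were seen.

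Growth signals reach hepatocytes through receptor tyrosine kinases, and the first genes to respond encode AP-1 and EGR transcription factors. Immediate-early and AP-1 genes were higher in 18 of 28 cases and lower in 4. Fosl1 rose from 7.03 ± 0.59 to 15.4 ± 0.548 CPM and Egr1 from 13 ± 0.67 to 25.2 ± 1.01 CPM, and the ERK phosphatase and ETS genes Dusp5 (0.62 ± 0.10) and Etv4 (0.88 ± 0.18) rose as well. Jun, Jund, Fosl2 and Atf3 fell, Jun from 136 ± 1.89 to 119 ± 2.16 CPM and Atf3 from 61 ± 4.03 to 44 ± 1.74 CPM. The fall of Jund was lost under total-count scaling and without any of 3 of the libraries. Fos was not called, at 4.2 ± 0.183 and 4.52 ± 0.0632 CPM. Among ligands and receptors (10 higher and 6 lower of 29, or 13 and 5 under total-count scaling), the EGF receptor ligand Hbegf rose from 3.02 ± 0.404 to 7.15 ± 0.597 CPM and the ligand Areg of the same receptor fell from 16.7 ± 0.784 to 7.63 ± 0.806 CPM. The hepatocyte growth factor receptor gene Met rose from 142 ± 1.44 to 187 ± 2.34 CPM, and Erbb2 from 1.08 ± 0.0447 to 2.92 ± 0.31 CPM. In the insulin-like growth factor axis, Igf1 fell from 157 ± 7.29 to 123 ± 0.947 CPM and its binding protein gene Igfbp2 from 176 ± 11.1 to 65.3 ± 1.72 CPM, while Igfbp3 rose from 2.86 ± 0.495 to 9.59 ± 0.0949 CPM. Dusp5, Etv4, Jun, Jund and Fos were named after their values were seen.

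The Hippo pathway limits liver size by restraining the coactivator YAP, which acts on DNA through TEAD factors. Of 29 pathway and target genes, 18 were higher and 3 lower. The target Ankrd1 stood at 11.8, 8.93 and 11.4 CPM in wild type and at 43.4, 42 and 43.3 CPM in the knock-in, and Ccn1 rose from 155 ± 2.08 to 247 ± 9.97 CPM. Yap1 itself was not called (0.02 ± 0.04). The TEAD genes diverged, Tead4 rising from 1.04 ± 0.315 to 3.3 ± 0.607 CPM and Tead2 falling from 9.32 ± 0.508 to 2.94 ± 0.339 CPM, and Ptpn14, a YAP inhibitor gene, fell from 57.8 ± 3.37 to 24.9 ± 0.945 CPM. From the Notch list the ligand gene Jag1 (4.09 ± 0.188 to 10.1 ± 0.384 CPM) and the target Hes1 (4.41 ± 0.329 to 8.71 ± 0.46 CPM) rose, and the other 9 of 11 members were not called. Yap1 and Tead4 were named after their values were seen.

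Keratins 8 and 18 form the intermediate filaments of hepatocytes, and their genes gained more CPM than most others. Krt18 stood at 1939.9, 1836 and 2089 CPM in wild type and at 3342, 3408 and 3395 CPM in the knock-in (edgeR adjusted p = 1.46e-12), and its partner Krt8 rose from 1716 ± 64.1 to 2691 ± 25.7 CPM. The bile duct keratin genes Krt7 and Krt19 rose from 1.39 ± 0.593 to 6.38 ± 0.219 CPM and from 3.48 ± 0.154 to 9.48 ± 0.405 CPM. Of 15 cholangiocyte and progenitor markers, both of these keratins included, 9 were higher and 4 lower: Sox9 rose from 6.29 ± 0.405 to 9.43 ± 0.512 CPM and Bicc1 from 47.6 ± 1.87 to 107 ± 3.52 CPM, but Prom1 fell from 51.3 ± 4.66 to 28 ± 1.16 CPM and Cd24a from 32.2 ± 2.36 to 16.9 ± 1.25 CPM. Their summed level was 649 to 654 CPM in wild type and 633 to 641 CPM in the knock-in, and whether cells of the bile duct differed in number was not tested.

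In the actin cytoskeleton, 27 of 50 genes were higher and 9 lower. The filamin gene Flnc rose from 11.1 ± 2.27 to 69.2 ± 4.41 CPM, the calcium-binding genes S100a6 and S100a11 from 69.8 ± 12.8 to 174 ± 8.23 CPM and 54.9 ± 2.33 to 114 ± 4.29 CPM, and moesin, Msn, from 34.5 ± 3.35 to 73.8 ± 4.04 CPM. The major actin gene Actb was not called (0.06 ± 0.10), and non-muscle myosin Myh10 fell from 193 ± 3.99 to 114 ± 3.42 CPM. Of 43 matrix and protease genes, 15 were higher (34.9%) and 11 lower (25.6%), beside 19.1% and 19.2% of all genes tested. In the basement membrane, the collagen IV genes Col4a1 and Col4a2 rose from 158 ± 5.09 to 224 ± 3.78 CPM and 53.2 ± 0.941 to 138 ± 4.39 CPM, the laminin gene Lamb3 from 2.59 ± 0.122 to 6.23 ± 0.229 CPM and nidogen, Nid1, from 500.2 ± 8.4 to 739 ± 31.9 CPM. Outside it, fibronectin, Fn1, fell from 5508 ± 169 to 4727 ± 142 CPM, Col12a1 from 487 ± 46 to 312 ± 11.2 CPM and the collagen crosslinking enzyme gene Lox from 36 ± 4.17 to 21.8 ± 0.703 CPM. Among integrins, the laminin receptor subunit gene Itga3 rose from 63.7 ± 3.7 to 142 ± 2.91 CPM. S100a6, Msn, Actb, Fn1, Col12a1 and Lox were named after their values were seen.

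Inflammatory signalling genes were higher more often than lower. NF-kappaB, the transcription factor that drives them, is kept in the cytoplasm by inhibitor proteins, and AEG-1 has been described as binding its p65 subunit. Rela, the gene of that subunit, was not called (−0.03 ± 0.04), but the non-canonical subunit genes Nfkb2 and Relb rose from 47.3 ± 1.37 to 74.2 ± 2.48 CPM and 11.3 ± 0.811 to 15.9 ± 0.59 CPM, and the feedback inhibitor gene Tnfaip3 from 33.3 ± 2.4 to 50.1 ± 1.3 CPM. Of 32 chemokine, cytokine and receptor genes, 17 were higher and 3 lower. The growth factor of macrophages, Csf1, stood at 31.1, 29.2 and 32.3 CPM in wild type and at 75.2, 78 and 77.3 CPM in the knock-in. The alarmin gene Il33 rose from 0.84 ± 0.137 to 3.67 ± 0.637 CPM, the membrane-bound chemokine gene Cxcl16 from 23.2 ± 1.04 to 41.8 ± 0.763 CPM, and the receptor subunit gene Il1rap from 10.8 ± 0.694 to 17.8 ± 0.311 CPM. Rela was named after its values were seen.

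Of 42 interferon-stimulated genes, 14 were higher and 3 lower (median 0.18), or 23 and 3 under total-count scaling, beside 38.4% called among all genes, and none differed 2-fold in mean CPM. Of 20 MHC class I and antigen processing genes, 10 were higher and 7 lower. Several heavy chain genes fell, H2-D1 from 737 ± 11.1 to 604 ± 4.37 CPM, H2-K1 from 1132 ± 31.3 to 1003 ± 11.1 CPM (not called under total-count scaling), H2-Q7 from 39.2 ± 0.663 to 22.7 ± 0.846 CPM, H2-Q6 from 24.9 ± 0.584 to 16.9 ± 1.08 CPM and H2-T23 from 119 ± 3.77 to 93.3 ± 1.89 CPM, and so did the light chain gene B2m, from 1299.5 ± 40.6 to 1120.2 ± 21.3 CPM. The immunoproteasome genes rose, Psmb8 from 10.9 ± 0.811 to 17.1 ± 0.523 CPM, Psmb9 from 3.73 ± 0.578 to 6.23 ± 0.415 CPM and Psmb10 from 18.9 ± 1.46 to 27.8 ± 1.03 CPM, with the peptide transporter gene Tap2 (0.38 ± 0.07). Heavy chain genes are similar enough to share reads. H2-D1, H2-K1, B2m, Psmb9 and Tap2 were named after their values were seen.

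Nuclear receptor genes include those of RXR, the known partner of the edited motif. Their differences ran from −0.62 to 0.92 log2, with a split that depended on the scaling. Rxra stood at 244, 250.0 and 239 CPM in wild type and at 239, 233 and 242 CPM in the knock-in and was not called (−0.04 ± 0.04, edgeR adjusted p = 0.42). Snd1 was not called either, at 217 ± 7.91 and 216 ± 5.2 CPM. Ppara fell (−0.26 ± 0.04), FXR, Nr1h4, rose from 82.6 ± 6.61 to 96.1 ± 2.61 CPM and LXR alpha, Nr1h3, from 51.4 ± 2.13 to 56.4 ± 2.07 CPM. The call for Nr1h3 was lost with DESeq2 and without any of 4 of the libraries. The glucocorticoid receptor gene Nr3c1 fell from 177 ± 5.92 to 131 ± 4.71 CPM. Of 35 receptor genes 9 were higher and 8 lower (12 and 4 under total-count scaling), and of 29 coregulator genes 5 and 5 (12 and 2 under total-count scaling), with Lpin1 the only one past 1.5-fold (256 ± 17 to 133 ± 7.33 CPM). The coregulators, at 17.2% each way, were close to the 19.1% higher and 19.2% lower of all genes tested. PPAR-alpha targets were higher in 35 of 62 cases and lower in 16 (median 0.20). In mean CPM, 4 of them rose at least 2-fold and 3 fell at least 2-fold. Cd36, a fatty acid receptor and transporter gene, was at 72.8, 66.1 and 87.3 CPM in wild type and at 574, 578 and 585 CPM in the knock-in. The pantetheinase gene Vnn1 rose from 17.8 ± 2.41 to 54.3 ± 0.844 CPM and the thioesterase gene Acot2 from 38.3 ± 3.01 to 83.8 ± 3.99 CPM. Targets on lipid droplets went apart, with the coat protein genes Plin4 and Plin5 lower (134 ± 7.28 to 77.5 ± 3.66 CPM and 79.4 ± 2.52 to 52 ± 4.24 CPM) and Plin2 higher (0.80 ± 0.04). The fatty acid carrier gene Fabp1 fell, from 40.4 ± 5.79 to 22.7 ± 0.963 CPM. In the separate list of CYP4 fatty acid omega-hydroxylase genes, 2 of 11 were higher and 7 lower (median −0.23). Fabp1 was named after its values were seen.

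Lipid handling genes can be followed from uptake to export. In uptake and binding, 9 of 18 genes were higher and 5 lower (12 and 2 under total-count scaling), with the acyl-CoA binding protein gene Dbi rising from 263 ± 11.3 to 376 ± 9.65 CPM and the acyl-CoA synthetase gene Acsl5 from 323 ± 8.21 to 462 ± 9.63 CPM. Mitochondrial beta-oxidation genes were higher in 18 of 29 cases and lower in 4 (median 0.17). Cpt1a, which commits fatty acids to the mitochondrion, stood at 104, 114 and 112 CPM in wild type and at 166, 164 and 182 CPM in the knock-in, and the carnitine carrier gene Slc25a20 rose from 51.6 ± 3.06 to 72.8 ± 1.85 CPM. Synthesis genes moved both ways (7 higher, 9 lower of 32, but 14 and 6 under total-count scaling). That is 21.9% higher and 28.1% lower, beside 19.1% and 19.2% of all genes tested. The fatty acid synthase gene Fasn was not called (−0.01 ± 0.04), while the desaturase genes of long polyunsaturated fatty acids, Fads1 and Fads2, fell from 329 ± 21.1 to 216 ± 7.03 CPM and 201 ± 17.4 to 123 ± 3.49 CPM. Of 30 genes for apolipoproteins and lipoprotein assembly, 14 were higher and 10 lower. Apob, the structural protein of very low density lipoprotein, rose from 5741 ± 208 to 6779.8 ± 19.6 CPM, and Apoe and Apoa4 fell from 7633 ± 384 to 5807 ± 71.6 CPM and 2557 ± 84.6 to 1609.6 ± 54.3 CPM. The VLDL receptor gene Vldlr, a HIF target as well, fell from 261 ± 22.9 to 115 ± 3.43 CPM, and hepatic lipase, Lipc, from 167 ± 4.22 to 96.9 ± 3.41 CPM. Fasn was named after its values were seen.

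Bile acids are made from cholesterol by several cytochromes P450 and bind the receptor FXR. In this list 11 of 25 genes were higher and 5 lower. The rate-limiting enzyme gene Cyp7a1 and the export pump gene Abcb11 rose from 0.655 ± 0.199 to 1.39 ± 0.0929 CPM and from 31.5 ± 4.49 to 50.8 ± 0.609 CPM, the efflux transporter gene Abcc4 from 32.8 ± 1.75 to 75.8 ± 4.55 CPM, and the uptake carrier gene Slc10a1 fell from 19 ± 1.95 to 14.1 ± 0.803 CPM. Cyp8b1, which steers synthesis to cholic acid, fell from 1.88 ± 0.189 to 0.839 ± 0.0891 CPM. Cyp7a1, Abcb11, Slc10a1 and Cyp8b1 were named after their values were seen.

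Hepatocytes differ along the liver lobule, with Wnt-controlled genes around the central vein and others near the portal tract. The pericentral list had 6 higher and 11 lower of 19 and the periportal list 5 higher and 11 lower of 20 (7 and 9 under total-count scaling). Cyp2e1, a pericentral ethanol oxidase gene, stood at 539, 550.1 and 537 CPM in wild type and at 155, 169 and 158 CPM in the knock-in, whereas Lect2, a direct Wnt target, rose from 24.6 ± 2.82 to 68.8 ± 2.73 CPM. Glutamine synthetase, Glul, the marker of the cells next to the central vein, fell from 40.8 ± 0.811 to 35.5 ± 1.67 CPM, a call lost under total-count scaling, and the Wnt feedback gene Axin2 was not called at 0.551 ± 0.167 and 0.51 ± 0.113 CPM. On the periportal side Hsd17b6 fell from 15.1 ± 0.43 to 5.99 ± 0.552 CPM and the lipid droplet enzyme gene Hsd17b13 from 1107 ± 17.7 to 646 ± 7.45 CPM. Glul and Axin2 were named after their values were seen.

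Glucocorticoid receptor targets were lower in 16 of 25 cases and higher in 5 (median −0.26; 13 and 7 under total-count scaling). Fkbp5, an immunophilin gene that the receptor induces directly, stood at 406, 396 and 397 CPM in wild type and at 301, 270.0 and 284 CPM in the knock-in, and the kinase gene Sgk1 fell from 341 ± 16.7 to 229 ± 15.2 CPM. Tsc22d3, a further direct target, rose from 58.5 ± 0.909 to 71.1 ± 1.12 CPM. Clock genes were lower in 12 of 21 cases and higher in 2 (11 and 4 under total-count scaling). The core activator genes Clock and Arntl and the repressors Nr1d1 and Nr1d2 were not called (0.01 ± 0.04, 0.09 ± 0.07, −0.03 ± 0.09 and −0.09 ± 0.06). The falls lay in the output and feedback genes, with Ciart from 6.04 ± 0.559 to 3.16 ± 0.238 CPM, the deubiquitinase gene Usp2 from 16.8 ± 0.446 to 9.27 ± 0.858 CPM and the PAR bZIP factor genes Hlf and Tef from 21 ± 1.52 to 14.6 ± 0.291 CPM and 77.7 ± 1.95 to 64 ± 0.357 CPM. The time of harvest is not given in the sources used here. Tsc22d3, Clock, Arntl, Nr1d1 and Nr1d2 were named after their values were seen.

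Enzymes that handle drugs and hormones are grouped here by family. Among CYP1, CYP2 and CYP3 genes, 23 of 45 were lower and 14 higher. The CAR target Cyp2b10 fell from 1945 ± 61.4 to 1214 ± 4.27 CPM, Cyp2j5, an arachidonic acid epoxygenase gene, from 93.2 ± 6.64 to 55.5 ± 2.34 CPM, and Cyp2s1 from 14.8 ± 2.89 to 3.77 ± 0.0292 CPM, while the aryl hydrocarbon receptor target Cyp1a1 rose from 27.9 ± 1.9 to 69.6 ± 6.09 CPM. Cytosolic sulfotransferases rose in 8 of 13 cases and fell in 2 (median 0.63). Sult1a1, which sulfates phenols, stood at 334, 324 and 364 CPM in wild type and at 795, 822 and 776 CPM in the knock-in, and Papss2, which makes the sulfate donor, rose from 75.8 ± 2.96 to 117 ± 5.64 CPM. Of 39 UGT and glutathione transferase genes 12 were higher and 16 lower (15 and 12 under total-count scaling). The glutathione transferase genes Gsta1, Gsta2 and Gsta4 rose from 60.3 ± 3.53 to 119 ± 4.61 CPM, from 16.7 ± 1.8 to 38.8 ± 0.398 CPM and from 107 ± 6.04 to 160.2 ± 2.81 CPM, whereas Gstp3 fell from 119 ± 3.38 to 66.4 ± 2.22 CPM. The antioxidant factor gene Nfe2l2 rose from 233 ± 8.14 to 339 ± 5.15 CPM and the haem oxygenase gene Hmox1 fell from 958 ± 113 to 564 ± 20.6 CPM. Copies within the CYP2C, SULT2A, GSTA and GSTP families are close enough for reads to be misassigned. Hmox1 was named after its values were seen.

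Livers of male and female mice differ in many of these genes, mostly through the rhythm of growth hormone. The X-inactivation gene Xist was high in all 6 libraries, at 2465, 2413 and 2177 CPM in wild type and 1697, 1692 and 1655 CPM in the knock-in, and the Y-linked genes Ddx3y, Kdm5d, Uty and Eif2s3y did not pass the filter on low counts, with group means of at most 0.192 CPM. High Xist with Y-linked genes near the floor is the pattern of female cells, in both genotypes. Male-biased liver genes were lower in 11 of 19 cases and higher in 5 (median −0.65). Members of this list are also counted above, Mup3 among secreted proteins, Serpina1e among serpins and C8b among complement genes. The organic anion transporter gene Slco1a1 fell from 8.7 ± 0.703 to 1.98 ± 0.278 CPM and the urinary protein genes Mup3 and Mup21 from 1632 ± 66.2 to 559 ± 18.4 CPM and 7.08 ± 0.908 to 1.9 ± 0.238 CPM. Female-biased genes went both ways, 12 higher and 9 lower of 30. A1bg was at 20.5, 20.9 and 21.4 CPM in wild type and 2.27, 2.54 and 1.99 CPM in the knock-in, whereas Sult2a1 rose by 2.55 ± 0.07. Stat5b, the factor that carries the growth hormone signal, and Ghr, its receptor gene, fell by a little (−0.26 ± 0.04 and −0.23 ± 0.04). Mup and Sult2a genes belong to families of near-identical copies.

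Amino acid metabolism was divided by pathway. Urea cycle and amino acid catabolism genes were higher in 16 and lower in 21 of 50 cases, a balance that became 25 and 18 under total-count scaling. The kynurenine route of tryptophan breakdown rose at several steps, Ido2 from 7.87 ± 0.398 to 18 ± 0.666 CPM, Kmo from 43.5 ± 2.69 to 64.8 ± 0.405 CPM, Kynu from 61.7 ± 6.59 to 105 ± 1.96 CPM and Haao from 13.2 ± 2.34 to 23.6 ± 0.338 CPM, and its hepatic entry enzyme gene Tdo2, at 59.3 ± 12.9 and 87.4 ± 4.53 CPM, was not called. Tyrosine breakdown fell at Hpd, from 142 ± 6.14 to 68.2 ± 4.26 CPM, and at Tat, from 138 ± 8.22 to 111 ± 1.69 CPM. Within the urea cycle, Otc rose from 37.5 ± 1.42 to 59.8 ± 1.56 CPM, Arg1 fell from 1597 ± 47.1 to 1254 ± 42.2 CPM, Ass1 fell from 219 ± 10.5 to 174 ± 7.06 CPM and Cps1 was not called (−0.07 ± 0.04). Serine synthesis rose at its 3 steps, Phgdh from 3.78 ± 0.789 to 6.77 ± 0.534 CPM, Psat1 from 104 ± 1.23 to 179 ± 2.22 CPM and Psph from 24 ± 1.72 to 35 ± 1.71 CPM. Kmo, Kynu, Haao and Phgdh were named after their values were seen.

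Some large groups had medians near 0, with splits that depended on the scaling. Of 80 cytosolic ribosomal protein genes 3 were higher and 10 lower (median 0.00), against 38.4% called among all genes, and 21 higher and 4 lower under total-count scaling. Of 72 nuclear genes of the respiratory chain 12 were higher and 9 lower (median 0.02; 33 and 1 under total-count scaling), and Atp5b, a subunit gene of ATP synthase, was at 1387 ± 25.8 and 1419 ± 11.3 CPM and not called. Constitutive proteasome genes were higher in 6 of 31 cases and lower in 1 (27 and 0 under total-count scaling), with sizes of at most 0.18. The endoplasmic reticulum chaperone gene Calr differed by 0.15 ± 0.04. The 37 mitochondrially encoded genes hold no counts in any library, and how reads from the mitochondrial chromosome were handled is not given in the sources used here. Atp5b and Calr were named after their values were seen.

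**Figure D4:**
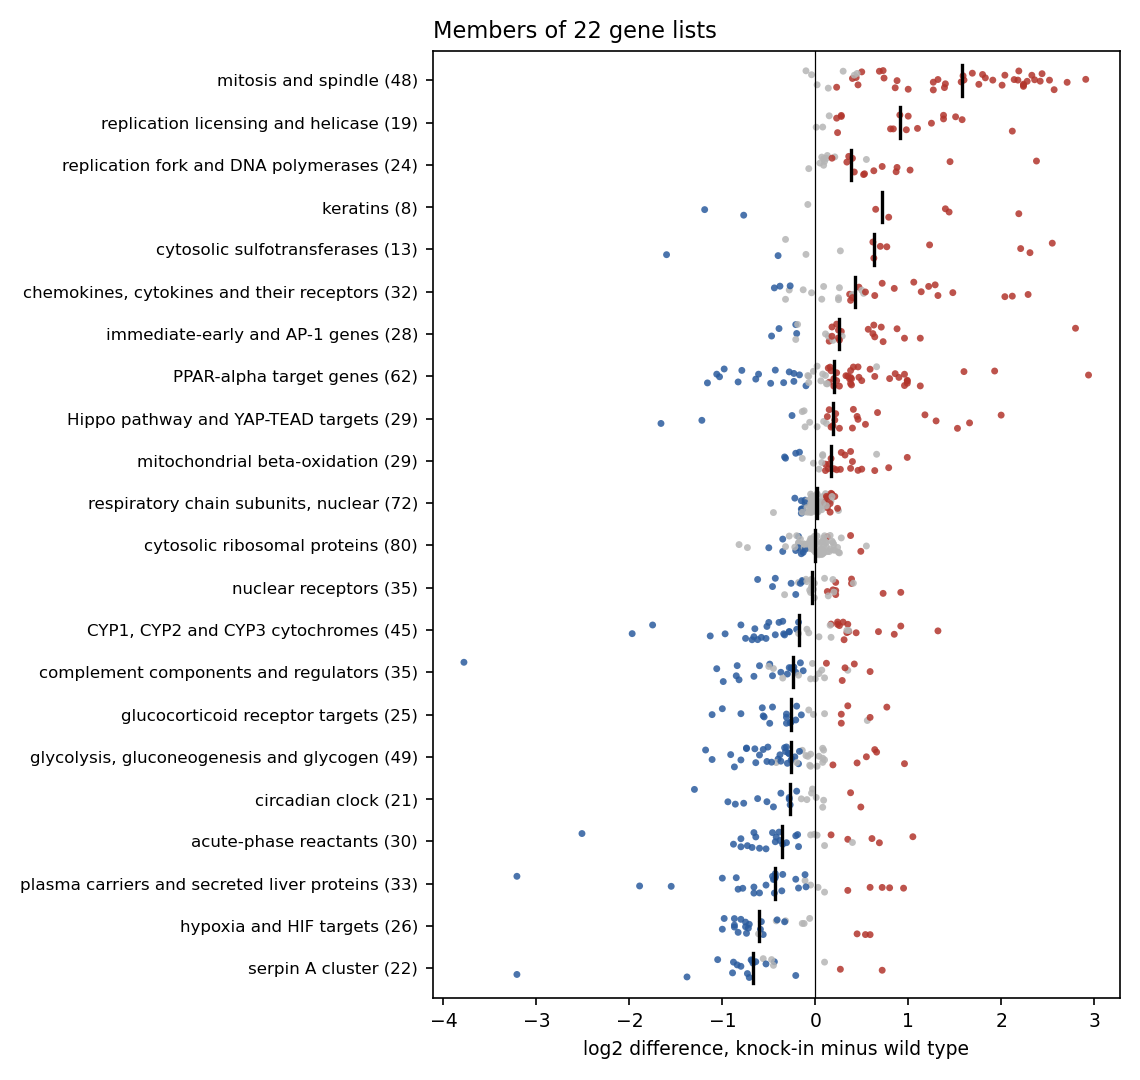
Each point is a tested member of a gene list, placed by its log2 difference, knock-in minus wild type, in red where called higher, blue where called lower and grey where not called; black bars are list medians and the number tested is in brackets. Medians run from 1.58 for mitosis to −0.67 for the serpin A cluster, and ribosomal and respiratory chain genes gather at 0.

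Long non-coding RNAs leaned to the lower side. Of 260 intergenic long non-coding genes tested, 65 were lower and 23 higher (median −0.15), and of 303 antisense genes 41 were lower and 7 higher (median −0.16). Both leaned lower under total-count scaling as well, with 46 lower and 26 higher and with 33 lower and 13 higher. Protein-coding genes were balanced, with 2597 lower and 2669 higher of 12180 (43.2% called), and processed pseudogenes leaned the other way, 79 lower and 127 higher of 1496. Neat1, the RNA around which paraspeckles form in the nucleus, was at 172, 214 and 209.6 CPM in wild type and 111, 114 and 103 CPM in the knock-in, and Xist differed by −0.48 ± 0.04. Malat1, the other abundant nuclear RNA, was not called (−0.10 ± 0.21). Host genes of small nucleolar RNAs fell in several cases, Snhg6 from 49.6 ± 5.5 to 32.3 ± 1.94 CPM, Snhg12 from 21.2 ± 2.48 to 14.7 ± 0.748 CPM, Zfas1 from 61.4 ± 7.08 to 41.8 ± 0.661 CPM and Gas5 from 134 ± 5.2 to 115 ± 1.7 CPM, though Snhg1 and Snhg8 were not called (−0.04 ± 0.06 and −0.16 ± 0.07). The counting did not use strand, so reads of an antisense gene and of its partner cannot be told apart. Neat1, Malat1, Snhg6, Snhg12, Zfas1, Gas5, Snhg1 and Snhg8 were named after their values were seen.

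**Figure D5:**
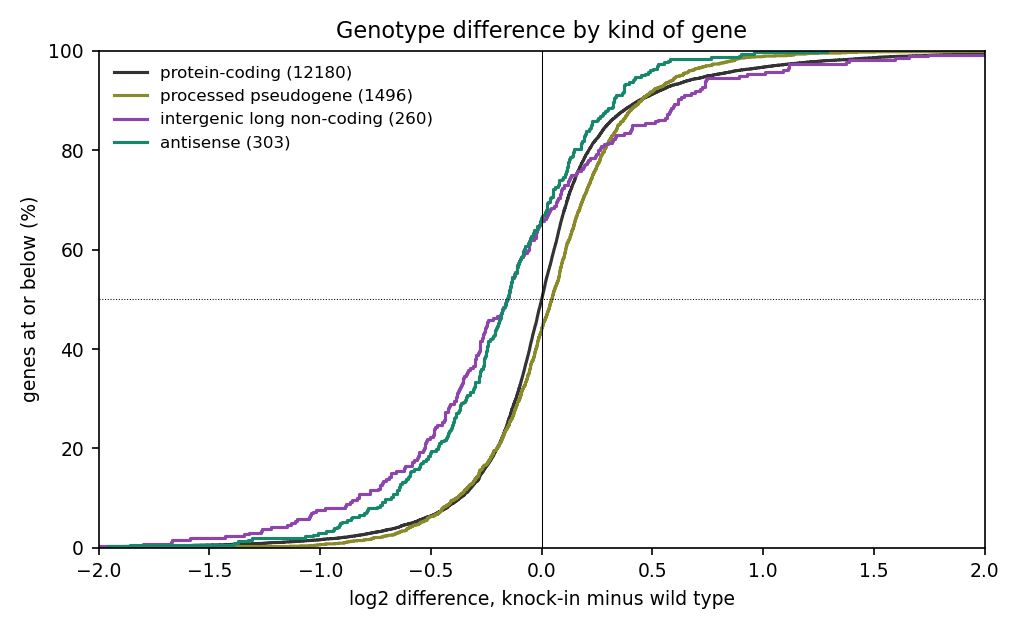
Cumulative share of genes (percent) at or below each log2 difference, knock-in minus wild type, for protein-coding genes, processed pseudogenes, intergenic long non-coding genes and antisense genes. Both non-coding curves lie to the left of the protein-coding curve below 0, with medians of −0.15 and −0.16, and the intergenic curve crosses it above 0.

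The largest single differences lay partly outside these groups. Bex1, an X-linked gene of neural and regenerating tissues, stood at 0.0377, 0.0387 and 0.332 CPM in wild type and at 1.66, 1.98 and 2.02 CPM in the knock-in (3.73 ± 0.40). Wild-type libraries 1 and 2 lay below the level of 3 counts (0.107 to 0.111 CPM), and without wild-type library 3 the difference of Bex1 became 5.48. Spink1 rose from 0.476 ± 0.181 to 3.86 ± 0.552 CPM, the proton pump subunit gene Atp6v0a4 from 0.339 ± 0.0578 to 2.42 ± 0.175 CPM, the kinase gene Nrk from 0.44 ± 0.177 to 2.59 ± 0.434 CPM, the semaphorin and VEGF coreceptor gene Nrp2 from 5.51 ± 0.0949 to 28.4 ± 1.88 CPM and the membrane protein gene Emp1 from 1.53 ± 0.401 to 8.1 ± 1.17 CPM. Igf2bp1, an oncofetal RNA-binding protein gene, rose from 0.488 ± 0.125 to 2.84 ± 0.687 CPM, and Sprr1a, a gene of cornified epithelium that is also induced by injury, from 547 ± 26.9 to 992 ± 37.1 CPM. The retinaldehyde dehydrogenase gene Aldh1a1 went from 845 ± 77.4 to 2258 ± 15.2 CPM, one of the largest gains in CPM. Among the falls, the chemokine scavenger receptor gene Ackr3 went from 3.12 ± 0.331 to 0.436 ± 0.168 CPM, the diacylglycerol kinase gene Dgki from 3.92 ± 0.283 to 0.653 ± 0.267 CPM, the mucin gene Muc2 from 5.17 ± 0.993 to 0.996 ± 0.238 CPM, the ephrin gene Efna3 from 2.22 ± 0.23 to 0.523 ± 0.106 CPM and the protease inhibitor gene Mug1 from 775 ± 27.2 to 199 ± 0.382 CPM. The VEGF receptor gene Flt1 was at 80.3, 75.9 and 68.1 CPM in wild type and 15.7, 13.2 and 14.1 CPM in the knock-in. Transglutaminase 2, Tgm2, fell from 3717 ± 243 to 1914 ± 55.8 CPM, and the plasma inhibitor gene Pzp from 3115 ± 106 to 1391 ± 25.6 CPM. Tmod1 fell from 2.74 ± 0.188 to 0.333 ± 0.107 CPM, but 32.6% of its exonic length is shared with Tstd2. Exons of Apoa4, Serpina1c, Tgm2 and Ccnd1 also share 34.8%, 31.5%, 21.8% and 21.3% of their length with another gene. Capn11, a calpain gene, was the only gene with at most 3 counts over the 3 libraries of a genotype and at least 1 CPM in the other: it held 1.62, 2.13 and 2.06 CPM in wild type and 0.0649, 0 and 0 CPM in the knock-in.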

How the data were processed

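RNA of untreated hepatocytes was sequenced, and the authors deposited 1 table of raw counts per gene and library; per the file headers they were made with featureCounts from the Subread package on an Ensembl GRCm38 annotation without using strand. The submitters' processing notes also name cutadapt, FastQC and edgeR. Of 46983 genes, 14946 were tested after edgeR's filter on low counts, which kept 99.92% of counts. Symbols, from the GENCODE annotation of the same build, matched 46488 genes. The fit held 6 libraries, 3 of each group, and used TMM scaling and the robust quasi-likelihood test of edgeR 4.0.16 (R 4.3.3), with group as the only term. On simulated data it recovered 58% of genes changed 1.25-fold and 94% of those changed 2-fold, and called 15 of 14746 unchanged genes. Far fewer genes changed in the simulation than were called here, and both groups were given the same spread. It therefore does not cover those features of the data. Alternatives were RLE, upper-quartile and total-count scaling, DESeq2 1.42.0, limma 3.58.1 (voom), other filters, a replicate block and each library left out.

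Members and lists were chosen with earlier results of these data known. Several lists share members, so their counts are not independent of each other. Genes are named by rule: the 15 largest rises and falls, the 10 largest gains and losses of CPM, up to 6 per list by adjusted p, genes silent in 1 genotype, AEG-1 partners and cell type markers. Of 303 genes named, 99 were outside that rule and chosen after their values were seen. Some genes that the rule names are not reported here. Genes with near-identical copies (Serpina1, Serpina3, Mup, Sult2a, Cyp2c, Cyp4a, H2, Acot) are uncertain.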

Additional observations from a re-analysis of the deposited data

How the results depend on the processing

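The count of genes called lay between 4792 and 6731 over the 9 alternatives that keep all 6 libraries and between 4723 and 6174 with 1 library left out, against 5737. Higher genes numbered 2376 to 3078 and lower genes 2296 to 3096 with 1 library left out. Total-count scaling gave 5022 higher and 1709 lower of 6731 called. Under it the median log2 difference became 0.03 for p53 targets, 0.04 for matrix and protease genes, 0.05 for iron genes, 0.01 for UGT and glutathione transferases and 0.03 for lysosome genes. Of 37 named genes that were not called, 10 became called with their sign kept. Besides these, Cdk4, Hnf4a and Snd1 became called with a change of sign (0.10, 0.09 and 0.09). With a minimum of 5 CPM the median of the female-biased genes became −0.02 (18 tested), of stellate cell and fibroblast markers 0.12 (4 tested), of matrix and protease genes 0.31 (20 tested) and of the macrophage markers, by Cd68 alone, −0.63. With the replicate number as a block 5464 genes were called, 2737 higher and 2727 lower. The numbers do not pair the libraries: deviations of same-numbered libraries correlated at 0.026, −0.026 and 0.004, and 1 of 3 wild-type libraries correlated best with its own number. Of 261 called genes named, 257 stayed called in all 15 alternatives that tested them; the exceptions were H2-K1 and Glul (total-count scaling), Jund (4 alternatives) and Nr1h3 (5 alternatives). The levels of 3 counts, 0.091 to 0.111 CPM, limit what can be read from genes near them.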

Other observations

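Iron genes centred on hepcidin, the hormone gene that closes iron export. Hamp fell from 3.37 ± 0.115 to 1.5 ± 0.336 CPM, as did its inducer Bmp6 (9.59 ± 0.47 to 6.45 ± 0.42 CPM) and its repressor Tmprss6 (369.9 ± 6.12 to 265 ± 3.56 CPM), while the copy Hamp2 rose from 1.27 ± 0.306 to 3.39 ± 0.213 CPM. Hamp and Hamp2 are close in sequence, so the split of reads between them is uncertain. The transferrin receptor gene Tfrc rose from 123 ± 16.2 to 185 ± 5.84 CPM and the iron exporter gene Slc40a1 fell from 263 ± 5.9 to 202 ± 4.65 CPM. In the whole list 7 of 26 were higher and 13 lower, or 11 and 10 under total-count scaling. Bmp6 and Tfrc were named after their values were seen.

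Several genes of fetal or transformed liver were among 8 higher of 22 in their list, Hmga2 from 1.44 ± 0.182 to 3.38 ± 0.401 CPM and Golm1 from 16.9 ± 0.298 to 32.8 ± 1.0 CPM, against 4 lower. Higher and lower genes were 36.4% and 18.2% of that list, beside 19.1% and 19.2% of all genes tested. Adhesion genes were higher in 12 of 24 cases and lower in 2, with the hyaluronan receptor gene Cd44 rising from 3.81 ± 0.226 to 8.82 ± 0.615 CPM and Icam1, a ligand of leukocyte integrins, from 28.1 ± 1.87 to 56.9 ± 0.66 CPM. Lysosome and autophagy genes were lower in 15 of 39 cases and higher in 6 (11 and 10 under total-count scaling), with Gpnmb falling from 53 ± 3.24 to 25.4 ± 1.24 CPM and the hexosaminidase gene Hexa from 117 ± 5.54 to 81.5 ± 1.27 CPM. Hmga2 was named after its values were seen.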
